A study of Homo sapiens with 9 samples.

Results

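The genes described here are THBS1, THBS2 and THBS3, which encode thrombospondins 1, 2 and 3, TNC, which encodes tenascin C, FN1, which encodes fibronectin, and CD47, a cell-surface receptor of thrombospondin 1. They were matched by symbol, and all 6 were found among the 27315 gene entries of the deposited table. They were chosen with results of these samples known, so every comparison of a member is a description with no test. The choice used no threshold. The data are RNA sequencing of polyadenylated RNA from MDA-MB-468, a human breast cancer cell line of the triple-negative type, infected with lentiviruses that carry short hairpin RNAs. Of 9 libraries, 3 carried the BBOX1 hairpin called sh1, 3 carried the BBOX1 hairpin called sh6 and 3 carried a scrambled control hairpin. BBOX1 encodes gamma-butyrobetaine hydroxylase, the enzyme of the last step of carnitine synthesis. All 9 libraries came from cells that had been infected and were then kept under drug selection, and no uninfected cells were compared. The labels give a target sequence for sh1 and none under the name sh6. They speak of triplicates without saying if these were grown apart, so the spread within a group may be technical.

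Thrombospondins and tenascins are matricellular proteins. They are secreted into the extracellular matrix, where they modulate cell adhesion and signalling more than they build structure. Thrombospondin 1 inhibits angiogenesis, binds the receptors CD36 and CD47 through different parts of the molecule and can activate latent TGF-beta. Thrombospondins 1 and 2 form trimers with the repeats that bind CD36, whereas thrombospondin 3 belongs to the pentameric subgroup, which lacks those repeats. Tenascin C is a large hexameric glycoprotein of embryonic, wounded and tumour tissue, and fibronectin is the adhesive glycoprotein that cells assemble into fibrils through integrins. CD47 also binds SIRPA on phagocytes, which restrains their uptake of the cell.

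The promoters of the 3 members with higher mRNA under both hairpins are shown first, since their levels lay in the same order over the groups. Each window runs from 250 bases before to 50 bases after the annotated start (RefSeq, GRCh38.p14, which is not the build named by the submitters), 5′ to 3′ on the strand of the gene. The THBS1 window is chr15:39580829-39581128 on the plus strand, the TNC window chr9:115118108-115118407 on the minus strand and the FN1 window chr2:215436019-215436318 on the minus strand. Capitals mark matches, on either strand, to the motifs named in the next paragraph.
THBS1: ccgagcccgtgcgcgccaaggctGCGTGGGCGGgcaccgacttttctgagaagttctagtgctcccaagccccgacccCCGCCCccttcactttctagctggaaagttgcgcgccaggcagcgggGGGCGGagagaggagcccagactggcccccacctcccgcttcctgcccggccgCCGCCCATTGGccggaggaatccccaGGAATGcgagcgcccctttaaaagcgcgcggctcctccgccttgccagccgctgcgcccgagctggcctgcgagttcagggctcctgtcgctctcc
TNC: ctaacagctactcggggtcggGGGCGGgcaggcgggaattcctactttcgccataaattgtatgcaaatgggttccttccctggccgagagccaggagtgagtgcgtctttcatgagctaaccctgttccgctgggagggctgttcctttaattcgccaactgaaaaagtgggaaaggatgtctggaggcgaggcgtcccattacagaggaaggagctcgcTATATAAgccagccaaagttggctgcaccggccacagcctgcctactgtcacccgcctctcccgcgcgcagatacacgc
FN1: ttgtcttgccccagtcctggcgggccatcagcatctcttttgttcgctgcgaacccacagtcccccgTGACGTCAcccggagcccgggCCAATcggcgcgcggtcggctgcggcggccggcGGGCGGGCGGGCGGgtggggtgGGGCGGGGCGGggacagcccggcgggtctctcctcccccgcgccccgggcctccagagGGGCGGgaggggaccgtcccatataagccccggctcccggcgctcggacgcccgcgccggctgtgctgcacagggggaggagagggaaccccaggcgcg

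The motifs searched were the GC box GGGCGG, the CCAAT box CCAAT, the cyclic AMP response element TGACGTCA, the EGR motif GCGTGGGCG, the TEAD motif GGAATG, the TATA box TATAAA and its variant TATATAA, the AP-1 motif TGANTCA, the E-box CACGTG and the CArG box. They were chosen with these sequences in view. The THBS1 window held 4 GC boxes, a CCAAT box 66 bases before the start, a TEAD match 46 bases before it and an EGR match 227 bases before it, which overlaps the most distant GC box. The FN1 window held 6 GC boxes, some of which overlap, a CCAAT box and a cyclic AMP response element 183 bases before the start. The TNC window held 1 GC box and the TATA variant 29 bases before the start. Of 35116 promoter windows of the same length, 45.0% held the GC box, 34.6% the CCAAT box, 14.0% the TEAD motif, 2.57% the TATA variant, 1.85% the cyclic AMP response element and 0.795% the EGR motif. The GC box was thus the 1 motif found in all 3 windows, and it is also the most frequent of those searched. It was not particular to the members that rose: CD47 held 6, the windows of THBS3 held 1 and 2, and THBS2 held 0. The TATA box (11.5% of windows), the AP-1 motif (7.71%), the E-box (7.26%) and the CArG box (1.29%) were not among the letters of these 3 windows. Only exact letters were searched, so near matches were not counted, such as the stretch atataag in the FN1 window. A TATA-like element is thus not shown to be particular to TNC. GC content was 70.0% in the THBS1 window, 57.3% in TNC and 76.7% in FN1, beside a median of 58.7% over all windows.

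**Figure D1:**
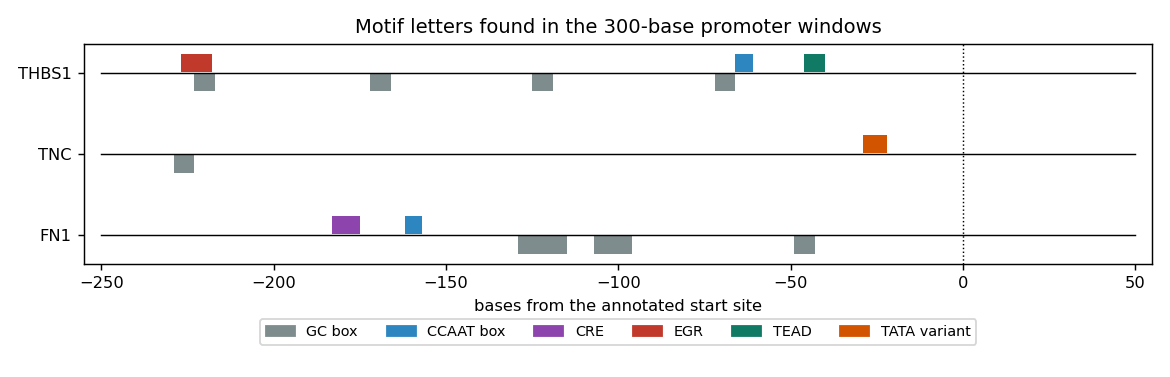
Positions of motif letters in the promoter windows of THBS1, TNC and FN1, in bases from the annotated start site (dotted line), with GC boxes below each line and other motifs above it. THBS1 holds 4 GC boxes and FN1 6, whereas TNC holds 1 together with the TATA variant 29 bases before the start. Only exact letters are drawn.

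Recovered depth was 15742303 to 16222166 reads per sh1 library, 16027281 to 18835254 per sh6 library and 16736109 to 19756768 per control library, and replicate libraries correlated with r of at least 0.9955 across genes. The targeted gene BBOX1 had normalised counts of 324.2, 345.7 and 327.6 with sh1, 606.1, 617.7 and 580.6 with sh6, and 2703, 2785 and 2360 in the controls. On the deposited log2 scale BBOX1 differed from control by -2.76 with sh1 (adjusted p = 3.73e-25, limma) and by -2.01 with sh6 (adjusted p = 6.15e-22), and all 3 libraries of each hairpin were lower. Permuting the labels exactly, two-sided, gave the smallest p that 3 libraries a group allow, 0.1. A normalised count is a read count scaled to the library's depth, recovered from the deposited value. All 8 epithelial markers examined were above the filter, and their summed normalised count was 146300 to 151700 with sh1, 144700 to 149100 with sh6 and 138300 to 148900 in the controls. The 9 fibroblast markers, a cell type rich in thrombospondins and fibronectin, summed to 365.1 to 438.3 with sh1, 416.9 to 506.9 with sh6 and 416.5 to 545.4 in the controls. COL1A2 was at 0 in all 6 hairpin libraries and DCN in the 3 sh6 libraries, and 4 of the 9 passed the filter. Their part in the member levels was not tested.

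THBS1 was the member that differed most. Its normalised counts were 7146, 7228 and 7654 with sh1, 3711, 3660 and 4202 with sh6, and 359.9, 385.5 and 500.5 in the controls. The 3 groups did not overlap, and among the controls the third library was the highest. The sh1 mean was 7343 ± 273 (SD, n = 3), the sh6 mean 3858 ± 299.7 (SD, n = 3) and the control mean 415 ± 74.9 (SD, n = 3). The ratios of these means were 17.7 for sh1 and 9.29 for sh6 over control. On the deposited log2 scale THBS1 was higher by 3.96 with sh1 (SE 0.0730) and by 3.05 with sh6 (SE 0.0730). No other gene of the 13165 tested had a larger positive difference on this scale with either hairpin. The scale compresses low genes, so this is not a ranking of folds. GAS6, at a mean of 16.5 normalised counts in the controls, rose 11.1-fold with sh6, more than THBS1. The authors' deposited table gives THBS1 a log2 fold change of 3.75 for a comparison whose samples it does not state.

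TNC had normalised counts of 2874, 2858 and 3083 with sh1, 1975, 2038 and 1987 with sh6, and 560.5, 479.7 and 658.8 in the controls. Again each group lay apart from the others, with sh1 highest and the controls lowest. The sh1 mean was 5.19-fold and the sh6 mean 3.53-fold the control mean. The difference from control was 2.26 with sh1 (SE 0.0699) and 1.72 with sh6 (SE 0.0699) on the deposited log2 scale. Of the genes tested, 4 had a larger positive difference with sh1 and 25 with sh6. The authors' deposited table lists a log2 fold change of 2.12 for TNC.

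FN1 showed the same order at a smaller size. Its normalised counts were 8568, 8313 and 9353 with sh1, 7612, 7304 and 8047 with sh6, and 4961, 4907 and 4966 in the controls. The highest sh6 library lay below the lowest sh1 library, and both hairpins lay above all controls. The sh1 mean was 1.77-fold and the sh6 mean 1.55-fold the control mean, and the differences were 0.81 (SE 0.0536) and 0.62 (SE 0.0536) on the deposited log2 scale. With sh1, 274 genes had a larger positive difference, and with sh6, 930. The authors' deposited table lists 0.73 for FN1.

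The mature mRNAs of THBS1, TNC and FN1 are of similar annotated length, 7775, 7641 and 7898 bases for the longest principal transcripts in GENCODE 29, so their levels can be set beside each other per kilobase. With sh1 THBS1 stood at 944 ± 35.1 normalised counts per kilobase (SD, n = 3), TNC at 385 ± 16.5 and FN1 at 1110 ± 68.6. With sh6 these levels were 496 ± 38.5 for THBS1, 262 ± 4.40 for TNC and 969 ± 47.2 for FN1. In the controls they were 53.4 ± 9.63 for THBS1, 74.1 ± 11.7 for TNC and 626 ± 4.17 for FN1. Of these 3, FN1 was thus highest per length in every group, while THBS1 stood second under both hairpins. In the controls the mean THBS1 and TNC levels differed by less than the sum of their SDs. Within each of the 3 control libraries, however, TNC stood above THBS1 per length. Which isoforms were present is not given by a table of 1 value per gene.

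THBS3 went the other way. Its normalised counts were 140.7, 140.0 and 134.8 with sh1, 108.5, 90.20 and 78.33 with sh6, and 190.1, 172.3 and 173.4 in the controls. The groups did not overlap, and the order had the controls highest and sh6 lowest. The control mean was 1.29 times the sh1 mean and 1.93 times the sh6 mean. On the deposited log2 scale the differences were -0.27 with sh1 and -0.68 with sh6 (SE 0.0890 each). THBS3 is a gene of modest level here, and the deposited scale compresses differences at such levels. The authors' deposited table lists -0.63 for it.

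THBS2 was close to the limit of detection in all 9 libraries. The recovered reads were 4, 2 and 7 with sh1, 5, 1 and 2 with sh6, and 4, 5 and 4 in the controls, and the groups overlapped. Its mean lay under the filter for testing, a normalised count of 16.2, so it was kept out of the fit across genes. No difference between groups was seen at these few reads, and the smallest change that could be seen was not computed. Both remaining family members also had a mean over the 9 libraries that lay under the filter. THBS4 averaged 18.2 ± 2.42 with sh1, 14.9 ± 2.99 with sh6 and 15.7 ± 0.139 in the controls (SD, n = 3 each), and its groups overlapped. COMP, the fifth thrombospondin, had 0 reads in the sh1 and control libraries and 4 reads in all with sh6. Per kilobase of annotated transcript THBS3 stood at 44.0 ± 1.03 normalised counts with sh1, 29.4 ± 4.83 with sh6 and 56.8 ± 3.18 in the controls (SD, n = 3 each). THBS1 was thus the main thrombospondin mRNA under both hairpins, whereas in the controls the THBS1 and THBS3 levels per length differed by less than their SDs added.

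CD47, the receptor, was lower with sh6. Its normalised counts were 2554, 2449 and 2331 with sh1, 1662, 1844 and 1944 with sh6, and 2778, 2907 and 2532 in the controls. All sh6 libraries lay below all others, whereas the highest sh1 library overlapped the lowest control. The control mean was 1.12 times the sh1 mean and 1.51 times the sh6 mean. The differences were -0.16 with sh1 (SE 0.0612) and -0.58 with sh6 (SE 0.0612) on the deposited log2 scale. The sh1 difference is small enough that its call depended on the settings: it was lost when control replicate 1 or 2 or sh1 replicate 2 or 3 was left out, with values of -0.15, -0.12, -0.16 and -0.13. The authors' deposited table lists -0.36 for CD47.

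**Figure D2:**
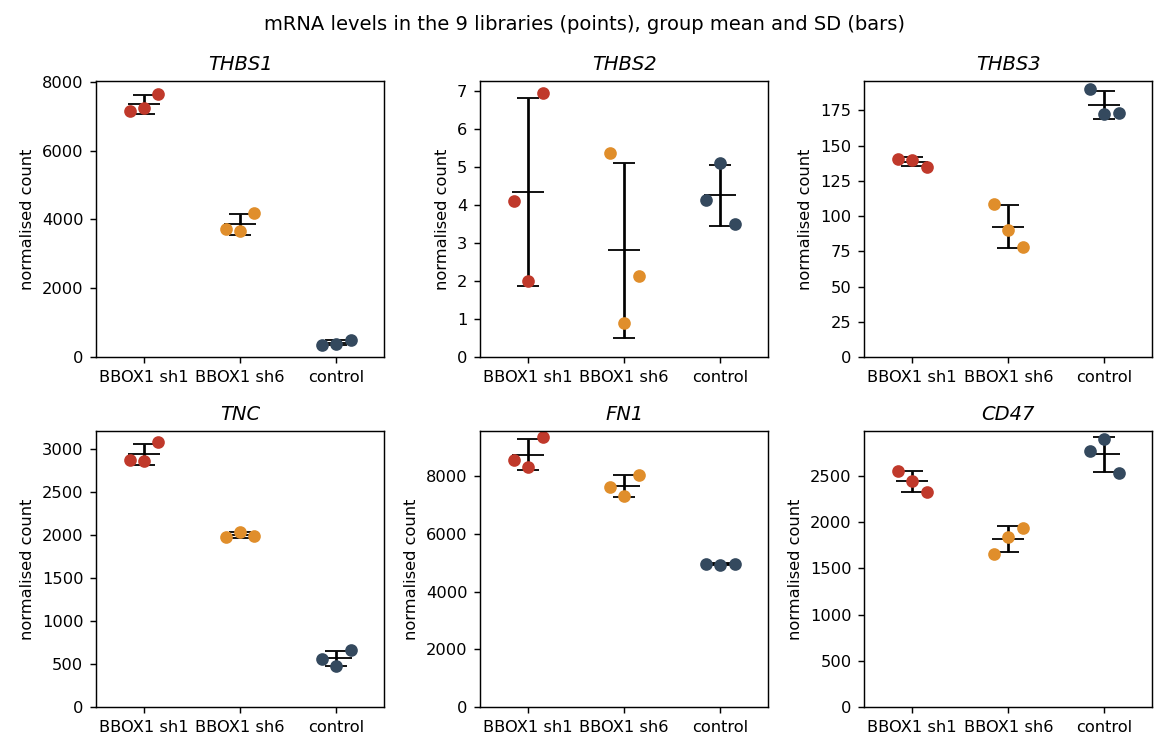
Normalised counts of the 6 genes in each library (points), with the group mean and SD (bars), for BBOX1 sh1, BBOX1 sh6 and control, on linear axes from 0. THBS1, TNC and FN1 are highest with sh1 and lowest in the controls, THBS3 and CD47 are lowest with sh6, and THBS2 stays below 7 normalised counts throughout.

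Set against each other, the sh6 libraries had lower levels than the sh1 libraries for all 5 members above the filter. THBS1 was lower with sh6 than with sh1 by 0.92 on the deposited log2 scale (difference -0.92, SE 0.0730), TNC had a difference of -0.54 (SE 0.0699) and FN1 one of -0.19 (SE 0.0536). THBS3 had a difference of -0.40 (SE 0.0890) and CD47 one of -0.42 (SE 0.0612), also lower with sh6. BBOX1 itself stood at 1.81 times its sh1 level in the sh6 libraries (adjusted p = 2.73e-11, limma). So THBS1, TNC and FN1 lay farthest from control with the hairpin that left less BBOX1 mRNA, while THBS3 and CD47 lay farthest from control with the other. With 2 hairpins, no relation to the remaining BBOX1 level can be tested.

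By the fit across all genes, a call is an adjusted p under 0.05. With sh1, 3 of the 5 members tested were called higher and 2 lower, where 29.0% of all genes were called higher and 30.0% lower. With sh6 the counts were again 3 higher and 2 lower, beside 34.2% and 33.6% of all genes. The same 3 were higher with both hairpins, against 18.9% of all genes, and the same 2 were lower with both, against 19.4%. Between the hairpins, 5 of 5 were lower with sh6 and 0 higher, beside 28.9% of all genes lower and 30.8% higher. The members were chosen on these contrasts, and both comparisons use the same 3 control libraries, so nothing is read from these counts. The median difference over all genes was 0.001 with sh1 and 0.006 with sh6.

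**Figure D3:**
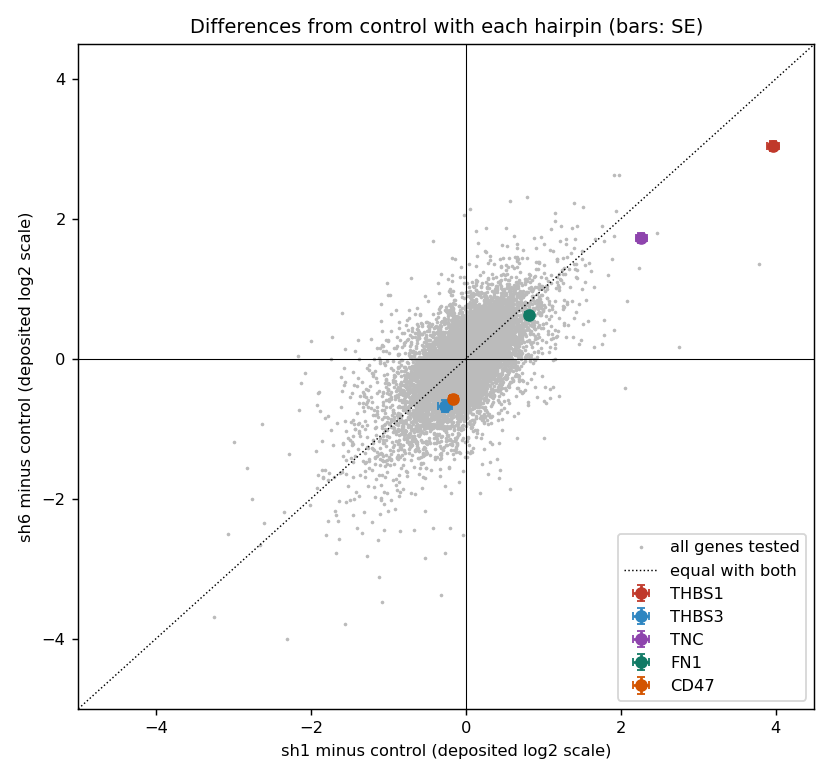
Difference from control with sh1 (horizontal) and with sh6 (vertical) on the deposited log2 scale for the 13165 genes tested (grey) and the 5 members tested (coloured, with SE), with a dotted line of equal values. THBS1, at 3.96 and 3.05, has the largest positive difference on both axes of this scale, which compresses low genes. All 5 members lie below the dotted line, and the axes share the 3 control libraries.

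Annotated exons of other genes overlap those of 3 members, and the sources used here do not say whether counting used strand. THBS1 shares 448 exon bases with FSIP1 on the opposite strand (GENCODE 29). FSIP1 had normalised counts of 21.5 to 28.8 with sh1, 10.6 to 21.7 with sh6 and 7.81 to 10.4 in the controls, and its part in the THBS1 values was not tested. A second gene opposite THBS1, AC037198.2, shares 411 exon bases with it. The largest overlap of THBS3 is with AC234582.1, over 1027 of the 4623 exon bases of THBS3. THBS3 also shares 146 exon bases with MTX1, which had 503 to 558 normalised counts with sh1, 564 to 588 with sh6 and 509 to 609 in the controls. TNC shares 129 exon bases with DEC1. No value was used here for AC037198.2, AC234582.1 or DEC1.

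Among 1443 genes with a clear level and a range of at least 1 over the libraries, those with profiles nearest to THBS1 were PTRF, SAP30L, TPM1, TNC and C2CD2, with Pearson's r of 0.9991, 0.9983, 0.9972, 0.9970 and 0.9965 over the 9 libraries. PTRF encodes cavin 1, a coat protein of caveolae, and TPM1 a tropomyosin of actin filaments. PTRF differed from control by 1.35 with sh1 and 1.02 with sh6 on the deposited log2 scale, and SAP30L, a subunit of a histone deacetylase complex, by 0.97 and 0.75. The genes nearest to TNC were P3H2, PTRF, SAMD4A, TPM1 and THBS1, with r of 0.9983 to 0.9970. P3H2, a collagen prolyl 3-hydroxylase, differed from control by 1.89 with sh1 and 1.42 with sh6. The genes nearest to FN1 were C2CD2, THBS1, PTRF, SAMD4A and SDAD1, with r of 0.9913 to 0.9884. THBS1 and TNC were thus within the nearest 5 of each other, and the profile was not rare: 101 candidates had r over 0.95 with THBS1. FN1 was not a candidate for either, since its deposited values ran only from 12.28 to 13.20, a range under 1. The libraries fall into 3 groups that carry nearly all of this likeness, so r is a description and has no p.

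**Figure D4:**
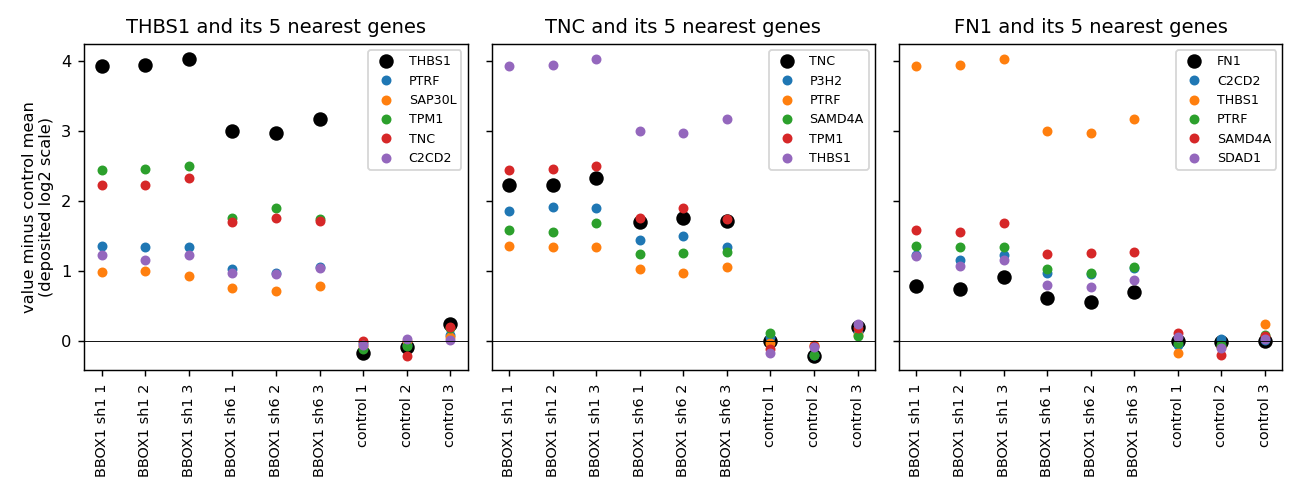
Value minus the control mean on the deposited log2 scale in each of the 9 libraries for THBS1, TNC and FN1 (large black points) and the 5 genes nearest to each by Pearson's r (small points). In each panel all genes stand highest in the sh1 libraries, lower in the sh6 libraries and near 0 in the controls, with differences of 0.62 (FN1, sh6) to 3.96 (THBS1, sh1).

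Genes of related function were taken from 16 lists written by function, though with earlier results of these data known. Of 166 genes listed, all were in the table and 106 passed the filter. Of these 22 rose with both hairpins and 19 fell with both, where 18.9% of all genes rose with both and 19.4% fell with both. A further 10 were called in opposite directions, for which no share over all genes was computed.

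Receptors of thrombospondin 1 and partners of CD47 were led by a fall of CD36 with both hairpins. Of 12 tested, 3 fell with both hairpins, 0 rose with both and 2 went in opposite directions, with median differences of -0.13 with sh1 and -0.14 with sh6. CD36, the scavenger receptor that binds the type 1 repeats of thrombospondin 1, had 9.468, 8.249 and 14.12 normalised counts with sh1, 8.529, 10.32 and 11.23 with sh6, and 120.7, 104.4 and 115.1 in the controls. It fell to about the same level with both hairpins, and the control mean was 10.7 times the sh1 mean (adjusted p = 1.32e-14) and 11.3 times the sh6 mean (adjusted p = 6.15e-15, limma). Both hairpin means lay under the filter, a normalised count of 16.2, so CD36 was tested only through its level in the controls. The 2 folds thus rest on hairpin levels near the floor. CALR, which encodes calreticulin, a partner of thrombospondin 1 at the cell surface, fell by 0.56 with sh1 and fell by 0.30 with sh6 on the deposited log2 scale. The heparan sulphate proteoglycan SDC1 fell by 0.20 with sh1 and fell by 0.26 with sh6, and its sh1 call was lost after quantile normalisation, with a difference of -0.09. ITGB1, the integrin subunit shared by most fibronectin receptors, split the hairpins. It fell by 1.02 with sh1 (adjusted p = 5.66e-17) and rose by 0.27 with sh6 (adjusted p = 3.57e-05), with 3524, 3428 and 3623 normalised counts with sh1, 8296, 8878 and 9028 with sh6, and 7113, 7520 and 7082 in the controls. STIM1, the calcium sensor of the endoplasmic reticulum, rose by 0.26 with sh1 and fell by 0.29 with sh6. SIRPA, the counter-receptor of CD47, and QPCTL, which modifies the SIRPA-binding end of CD47, were looked at after their values were seen. SIRPA had differences of -0.14 with sh1 and 0.08 with sh6 that did not pass the test, and QPCTL fell by 0.86 with sh6 (adjusted p = 3.04e-10) with a difference of -0.01 with sh1 that did not.

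Among receptors of fibronectin and tenascin C, CD44 had the largest fall. Of 11 tested, 2 rose with both, 1 fell with both and 0 went apart, with median differences of 0.06 with sh1 and 0.07 with sh6. The integrin subunit ITGB5 rose by 0.23 and 0.46 with sh1 and sh6, and the annexin ANXA2 by 0.18 and 0.17. CD44, the hyaluronan receptor, fell by 0.42 with sh1 (adjusted p = 3.22e-08) and fell by 1.21 with sh6 (adjusted p = 4.58e-19). Its control mean was 1.34 times the sh1 mean and 2.32 times the sh6 mean.

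The other matricellular genes that passed the filter went both ways. Of 18 listed, 10 were tested. Of these, 3 rose with both hairpins and 3 fell with both, beside 18.9% and 19.4% of all genes. A further 1 went in opposite directions, and the median differences were -0.24 with sh1 and 0.13 with sh6. Among those under the filter, SPP1 (described below) and WISP1 had all hairpin libraries below all controls. None there had all hairpin libraries above all controls. CTGF, connective tissue growth factor, had 1528, 1595 and 1743 normalised counts with sh1, 641.9, 639.0 and 653.1 with sh6, and 329.1, 275.2 and 412.8 in the controls. CTGF rose with both, the sh1 mean being 4.78 times and the sh6 mean 1.90 times the control mean (adjusted p = 1.09e-19 for sh1 and 2.42e-10 for sh6), an order that THBS1, TNC and FN1 also showed. GAS6, a ligand of receptor kinases, was also higher, 9.76-fold for sh1 and 11.1-fold for sh6. NOV, a relative of CTGF, averaged 44.4 ± 6.23 normalised counts with sh1, 38.4 ± 4.63 with sh6 and 7.11 ± 1.72 in the controls (SD, n = 3 each), and it rose with both. Its control mean lay under the filter, so NOV was tested only through its level in the hairpin libraries. CYR61, another relative of CTGF, went the other way and was named after its values were seen. It fell by 0.41 with sh1 and fell by 0.86 with sh6 on the deposited log2 scale. The elastic fibre protein FBLN5 fell by 0.87 with sh1 and fell by 0.82 with sh6 on the deposited log2 scale, and FBLN1, another fibulin, fell by 0.35 with sh1 and rose by 0.25 with sh6. Of the other tenascins, TNN and TNR had 0 reads in the hairpin libraries and 2 each over the 3 controls. TNXB, named after its values were seen, averaged 25.1 ± 3.91 normalised counts with sh1, 14.3 ± 3.42 with sh6 and 26.1 ± 2.76 in the controls (SD, n = 3 each). It fell by 0.32 with sh6 (adjusted p = 0.00784, limma), and its sh1 difference of -0.02 did not pass the test.

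Matrix proteases and their inhibitors changed in both directions. Of 17 tested, 4 rose with both, 2 fell with both and 3 went apart, with medians of -0.07 with sh1 and 0.25 with sh6. ADAMTS1, a protease that cleaves thrombospondins, had 136.4, 139.7 and 134.1 normalised counts with sh1, 70.07, 73.93 and 101.1 with sh6, and 26.89, 14.36 and 18.48 in the controls. The sh1 mean was 6.87 times and the sh6 mean 4.10 times the control mean (adjusted p = 9.71e-14 for sh1 and 6.33e-10 for sh6), again with the 3 groups apart. ADAM17, the sheddase of many surface proteins, fell by 1.41 with sh1 and fell by 0.77 with sh6. The membrane metalloprotease MMP15 rose by 0.88 and 0.48 with sh1 and sh6, and the secreted serine protease HTRA1 by 0.38 and 0.61. The control mean of HTRA1, a normalised count of 8.77, lay under the filter. The inhibitor TIMP1 fell by 0.62 with sh1 and rose by 0.47 with sh6. TIMP3 rose by 0.91 with sh6, and its small fall of 0.17 with sh1 (difference -0.17) was no longer called without control replicate 1 or 3 or sh1 replicate 2 or 3, with differences of -0.17, -0.12, -0.14 and -0.16.

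Enzymes that place sugars on thrombospondin repeats were all tested, 5 of 5. Of these, 2 rose with both hairpins and 0 fell with both, with median differences of 0.06 with sh1 and 0.20 with sh6. POFUT2, which adds O-linked fucose to the repeats, rose by 0.26 with sh1 and 0.73 with sh6. B3GLCT, which extends that fucose with glucose, rose by 0.36 with sh1 and 0.20 with sh6. The sh6 call of B3GLCT was lost without control replicate 1 or 2 or sh6 replicate 2 or 3, with differences of 0.20, 0.16, 0.16 and 0.16.

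TGF-beta, which thrombospondin 1 can release from its latent complex, is also a known inducer of THBS1, TNC and FN1 transcription. Of 9 genes of the ligands and their binding proteins, 1 rose with both, 1 fell with both and 1 went apart, with medians of -0.07 with sh1 and 0.24 with sh6. The ligand TGFB2 rose by 0.61 with sh1 and 0.73 with sh6 (adjusted p = 5.02e-11 for sh1 and 4.65e-13 for sh6), LTBP1 fell by 0.49 and fell by 0.34, and LTBP3 fell by 0.73 with sh1 and rose by 0.70 with sh6. Of 15 reported regulators of THBS1, TNC or FN1 that were tested, 5 rose with both, 4 fell with both and 1 went apart, with medians of -0.10 with sh1 and 0.02 with sh6. ID1, which represses THBS1 in mouse cells, fell by 0.85 with sh1 (adjusted p = 8.34e-10) and fell by 1.90 with sh6 (adjusted p = 3.55e-18). TEAD1, the DNA-binding partner of YAP, rose by 0.71 and 0.60 with sh1 and sh6, and the TGF-beta effector SMAD3 by 0.72 and 0.32. Of the same list, YAP1 and WWTR1 were named after their values were seen. They fell by 0.32 and 0.40 with sh1, and their sh6 differences of -0.05 each did not pass the test. EGR1, an immediate early transcription factor, fell by 0.49 and fell by 0.77. SOX4 rose by 0.61 with sh6, and its difference of -0.13 with sh1 was no longer called without control replicate 1 or 2 or sh1 replicate 2 or 3, at -0.14, -0.10, -0.11 and -0.14. SMAD4, the common partner of SMAD3 that this line is known to have lost, had 6 reads over the sh1 libraries, 2 over sh6 and 5 over the controls.

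Among genes that crosslink or accompany fibronectin in the matrix, 2 of 6 tested rose with both hairpins and 2 fell with both, with medians of 0.21 with sh1 and 0.12 with sh6. LOXL2 and the fibulin EFEMP1 rose, by 0.59 and 0.43 with sh1 and by 0.27 and 0.50 with sh6. The lysyl oxidase LOX fell by 1.82 with sh1 and fell by 0.84 with sh6, and the transglutaminase TGM2 fell by 0.48 and fell by 0.69. FN1 and TNC are often read as markers of a mesenchymal state, so mesenchymal markers were set beside them. Of 8 listed, 3 passed the filter, 1 rose with both and 1 fell with both. The transcription factor TWIST2 rose by 0.49 with sh1 and 0.62 with sh6. SNAI1 fell by 0.76 with sh1 and fell by 0.33 with sh6, and the sh6 call was lost without sh6 replicate 3, at -0.25. The third, the intermediate filament gene VIM, was named after its values were seen. It averaged 185.2 ± 34.6 normalised counts with sh1, 120.6 ± 19.6 with sh6 and 223.6 ± 25.3 in the controls (SD, n = 3 each). VIM fell by 0.67 with sh6 (adjusted p = 7.52e-07, limma), and its sh1 difference of -0.22 did not pass the test. The summed normalised count of the 8 was 269.9 to 352.4 with sh1, 253.0 to 308.7 with sh6 and 321.7 to 382.1 in the controls, and ZEB2 and SNAI2 were at 0 in all 9 libraries. Of the 8 epithelial markers, 2 rose with both and 0 fell with both. The basal keratin KRT5 rose by 0.59 with sh1 and 0.82 with sh6 and KRT17 by 0.38 and 0.16, whereas KRT14 rose by 0.52 with sh1 and fell by 0.29 with sh6.

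**Figure D5:**
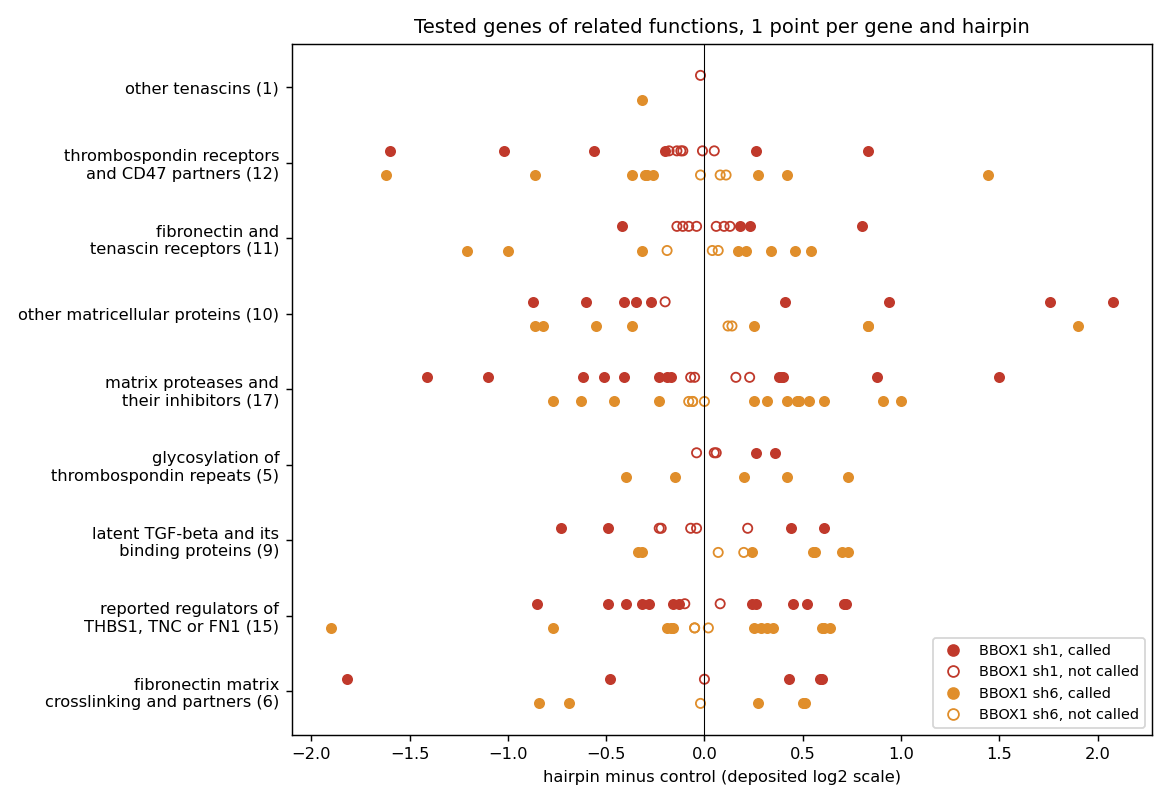
Difference from control on the deposited log2 scale for each tested gene of 9 lists of related function (number tested in brackets), with sh1 above sh6, filled where the adjusted p was under 0.05 and open where not. Points lie on both sides of 0 in every list with more than 1 gene, from -1.90 (ID1, sh6) to 2.08 (CTGF, sh1).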

How the data were processed

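Polyadenylated RNA of 9 libraries was sequenced as pairs of 100-base reads, per the labels. Upstream, the submitters' processing notes list STAR, Salmon, cutadapt and DESeq2, with hg19 as the build and no settings. The deposited table holds log2-like values, the authors' output of a variance-stabilising transformation, and its name calls them batch-corrected. It also holds the authors' log2 fold change and adjusted p-value for a comparison whose samples are not stated. All columns share the floor 5.02. The transformation was inverted in closed form from this floor, which gives normalised counts, and steps between low values gave what 1 read is worth. Between 75.1% and 80.2% of low values per library were whole reads within 0.05, so the steps of counting remain.

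Genes with a mean at least 1 above the floor, a normalised count of 16.2, were kept (13165). The mean was over all 9 libraries, so a gene could be kept with a group under this level. Examples are CD36, NOV, HTRA1, TGM2, TNXB and PDGFRA. The test was limma 3.58.1 in R 4.3.3, fitted to the deposited log2 values as 1 model of 3 groups over the 9 libraries. It used lmFit, then eBayes with its trend option, two-sided, with Benjamini-Hochberg adjustment over all genes kept. Log2 differences are on the deposited scale, which understates changes of low genes, and folds are ratios of mean normalised counts. The fit was tested on simulated data. The members and lists were chosen with earlier results of these data known. Named were the members, BBOX1, per list up to 4 genes called alike with both hairpins and up to 2 called in opposite directions, and the 5 genes nearest in profile to THBS1, TNC and FN1. Nearest genes needed a mean at least 2 above the floor, a range of at least 1 and a RefSeq entry as a coding or long non-coding gene. Promoters came from RefSeq (6 of 6 members matched), and exon overlaps and lengths from GENCODE 29 on GRCh38. Symbols turned into dates (27) are not named. All columns of the table belong to listed samples or to the authors' comparison. Tables used pandas 2.3.3 and numpy 2.4.6 under Python 3.11.15, permutations scipy 1.17.1, and plots matplotlib 3.10.9. The summed level of 1 marker list is not reported here.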

Additional observations from a re-analysis of the deposited data

Results flagged for a closer look

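The hairpins had opposite effects, with the difference between them itself called in limma, in 9 named genes of related function. The values given are differences of sh6 minus sh1 on the deposited log2 scale. They were 1.29 for ITGB1, -0.55 for STIM1, 0.61 for FBLN1, 1.09 for TIMP1, 1.08 for TIMP3, 1.42 for LTBP3, 0.74 for SOX4, -0.81 for KRT14 and 0.82 for PDGFRA. PDGFRA, a receptor of fibroblasts, fell by 0.43 with sh1 and rose by 0.39 with sh6. The protease MMP7 was also called in opposite directions, but the limit of 2 such genes per list left it out. It was named after its values were seen. MMP7 fell by 0.51 with sh1 and rose by 0.53 with sh6, and sh6 minus sh1 was 1.04. For SOX4 and TIMP3 the differences from control with sh1 were small, -0.13 and -0.17, and their calls depended on the settings. No split of direction between the hairpins was seen in the 5 members tested. A separate effect of either hairpin on genes other than BBOX1 cannot be told apart from an effect of the BBOX1 level, since each level of BBOX1 comes with 1 hairpin.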

How the results depend on the processing

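The 5 members above the filter kept their direction under all alternatives run. After quantile normalisation the FN1 difference was 0.96 with sh1 and -0.34 between sh6 and sh1, and THBS1 had -1.07 between sh6 and sh1. On the log2 of the normalised count plus 1, THBS1 differed by 4.16 with sh1 and 3.22 with sh6, and THBS3 by -0.96 with sh6 and -0.59 between sh6 and sh1. The scale compresses low genes by construction, and the cause of the quantile shifts was not tested. The CD47 call with sh1 was also lost after quantile normalisation (-0.08), after centring on sample medians (-0.14), without the variance trend and at an adjusted p under 0.01 (-0.16 each). Leaving out each library in turn gave 3.88 to 4.09 for THBS1 with sh1 and 2.96 to 3.17 with sh6, and 2.16 to 2.37 and 1.62 to 1.83 for TNC. All counts of genes called stayed within 1.5 times. With each gene's group mean subtracted, the deviations of same-numbered libraries correlated between -0.128 and 0.176 (3 of 9 pairs over 0.1). In 4 of 9 the highest correlation was with the same number. Replicate numbers were therefore not used as pairs in the main fit, though this does not settle whether the libraries were paired. A replicate block gave 7950 called genes with sh1, 9049 with sh6 and 8002 between sh6 and sh1, against 7760, 8922 and 7861 without it. The other genes counted under alternatives were those named from the lists by their calls with both hairpins. Nearest genes and genes named after their values were seen were left out of this count. Of 1378 values, 1356 kept direction and call, 22 lost the call and 0 reversed. Besides those given above, these were calls at an adjusted p under 0.01 (TIMP3, B3GLCT, SOX4 and KRT14) and the sh1 call of SOX4 without a filter, without the variance trend and after both rescalings. Without the filter, THBS2 had differences of -0.01 with sh1, -0.12 with sh6 and -0.11 between sh6 and sh1 (SE 0.111 each). The log2 plus 1 scale for counts of genes was chosen after the data were seen.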

Other observations

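Osteopontin (SPP1), a matricellular protein that binds integrins and CD44, lay under the filter over all libraries and was looked at after its values were seen. It had normalised counts of 5.003, 7.731 and 5.185 with sh1, 0, 0.907 and 0 with sh6, and 51.08, 55.45 and 46.47 in the controls. All hairpin libraries lay below all controls, and the sh6 libraries lay below the sh1 libraries. LRP1, the endocytic receptor that clears thrombospondin 1, was also chosen after its values were seen. It had 245.1, 243.1 and 286.0 normalised counts with sh1, 953.6, 843.1 and 945.4 with sh6, and 277.1, 286.9 and 333.3 in the controls. It rose 3.06-fold with sh6 (adjusted p = 1.89e-16, limma), and its sh1 libraries overlapped the controls.

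The 7 endothelial and platelet markers summed to 152.8 to 191.6 normalised counts with sh1, 130.4 to 152.2 with sh6 and 285.5 to 327.2 in the controls, with PF4 at 0 throughout. KDR, a receptor of vascular growth factor, averaged 82.9 ± 12.5 normalised counts with sh1, 87.0 ± 12.5 with sh6 and 226.5 ± 19.2 in the controls (SD, n = 3 each). It fell by 1.04 with sh1 and fell by 1.00 with sh6. The other gene of this list that was tested, the platelet integrin ITGA2B, was named after its values were seen. It rose by 0.56 with sh1 (adjusted p = 8.42e-06, limma), and its sh6 difference of 0.16 did not pass the test. CD68, a marker of macrophages, averaged 77.6 ± 11.6 normalised counts with sh1, 133.8 ± 3.32 with sh6 and 211.1 ± 15.9 in the controls (SD, n = 3 each). It fell by 1.02 with sh1 and fell by 0.49 with sh6. The 4 markers of packaging cells summed to 138.4 to 164.9 with sh1, 165.9 to 183.6 with sh6 and 117.6 to 162.6 in the controls, with NEFM at 0 throughout. Their part in the results was not tested.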
